A study of Ovis aries with 12 samples.

Results

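On an array of sheep heart RNA, 7 numbered miRNA names, miR-1246, miR-1260, miR-1973, miR-4448, miR-4532, miR-7641 and miR-7977, were grouped as entries that overlap tRNA, rRNA and other RNA, a grouping that was aligned here for miR-7641 only and that has no stated origin for miR-4532. They were taken by these numbers in the probe names, whatever the species prefix, hairpin arm or sequence variant, and the numbers had been chosen on earlier results of these same arrays. The rule found 76 of the 3091 miRNA probes in the deposited table: 33 of miR-1260, 20 of miR-7641, 9 of miR-1246, 6 of miR-4448, 5 of miR-1973, 2 of miR-7977 and 1 of miR-4532. Their differences with age are therefore given as a description of these 12 hearts.

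The arrays held RNA of the left ventricle of Merino sheep at 4 normal ages, with 3 animals, each on 1 array, at every age: fetuses near 91 days (F91) and at 141 days (F140) of gestation, and lambs at 5 days (P5) and 173 days (P173) after birth. All were untreated controls. The animals were female, except F91 replicate 3. Twins made up the whole P5 group and gave F140 replicate 2, and the rest were singletons, so at P5 age and twinning cannot be told apart. By their array names P5 replicates 1 and 2 may be twins of each other, which the labels do not state, and the errors at P5 treat the 3 lambs as independent. Total RNA of whole ventricle was labelled with a single dye through an adapter joined to the 3′ end of the RNA. A signal in such tissue cannot tell fewer cells that hold an RNA from less RNA in each cell, and it does not give the length of the molecule that bound.

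Ribosomal, transfer and small nuclear RNA are among the most abundant RNA of any cell, and their breakdown or regulated cleavage leaves short pieces within the size range of miRNA. Several entries of the miRNA database overlap such pieces. The miR-7641 sequence lies in 5S rRNA, an RNA of the large ribosomal subunit. The miR-1973 sequence lies in the mitochondrial 16S rRNA. The miR-1260 and miR-7977 sequences resemble the 3′ ends of tRNA, which carry an added CCA, and the miR-4448 sequence resembles the 5′ end of a tRNA for proline. The miR-1246 sequences lie in U2 small nuclear RNA, a part of the spliceosome. No origin is given here for miR-4532. Apart from 5S rRNA these origins are general knowledge and were not aligned here.

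The 5S rRNA could be rebuilt from the array itself, because 12 control probes, 6 named for cattle and 6 for human, are named for it. Joining the targets of 11 of them, with overlaps of at least 4 bases and 1 miR-7641 target across the middle, gave a sequence of 121 bases. The other control, hsa-5S-b3, was not joined. Placed without gaps it differs from this sequence at 5 bases, which 1 inserted base would account for. The miR-7641 probes are read along it, and bases 75 to 88 are the stretch that every miR-7641 probe higher at P173 than at F91 spans.

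All 20 miR-7641 targets could be placed on this RNA, with at most 2 mismatches. Of these, 7 are printed 5′ to 3′ to show where each ends. The first 4 targets below span the stretch whole, the next 2 enter it and stop short of its end, and the last lies upstream of it. Capitals mark the bases within the stretch.
hsa-mir-7641-1-p3_2ss6TC26AG: gggcccgguuaGUACUUGGAUGGGAgac
hsa-mir-7641-1-p3_1ss18AG: uuaGUACUUGGAUGGGAga
hsa-mir-7641-1-p3: uuaGUACUUGGAUGGGA
hsa-mir-7641-1-p3_1ss16AT: aGUACUUGGAUGGGAua
hsa-mir-7641-1-p3_1ss7TC: ugggcccgguuaGUACUUGGAUGG
hsa-mir-7641-2-p3_1ss6TC: gggcccgguuaGUACUUGG
hsa-miR-7641: uugaucucggaagcuaagc

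None of the 12 controls spans the stretch whole.

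The miR-4448 probes differ at base 6 from each other and, by their names, from the human sequence. They are shown with base 6 in capitals.
hsa-miR-4448_1ss6CG: ggcucGuuggucuaggggua
hsa-miR-4448_1ss6CA: ggcucAuuggucuaggggua
hsa-miR-4448_1ss6CT: ggcucUuuggucuaggggua

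The miR-1973 probes are staggered over 1 site and share 11 bases, in capitals, and the 3 brightest miR-1246 probes share 16.
cgr-miR-1973: ugacCGUGCAAAGGUagc
hsa-miR-1973: acCGUGCAAAGGUagcaua
hsa-mir-1973-p3_1ss2CT: uucugacCGUGCAAAGGU
bta-mir-1246-p5_1ss12AG: uuuGGAGCAGGGAGUUGGAaua
bta-mir-1246-p5_1ss9AG: GGAGCAGGGAGUUGGAaua

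The miR-1260 probes are variants of 1 sequence, and the capital marks a base at which their main forms differ. For miR-7977 the capitals mark the last 3 bases, and miR-4532, of which 94.1% is G or C, is shown whole.
bta-miR-1260b: aucccaccAcugccacca
bta-miR-1260b_1ss9AG: aucccaccGcugccacca
hsa-miR-7977_L-1_1ss12CT: ucccagccaaugcaCCA
hsa-miR-4532: ccccggggagcccggcg

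The 76 targets were 17 to 28 bases long, with a median of 19 bases against 21 bases over all 3091 probes, and their median G and C content was 58.1% against 47.4%. Values are normalised signals in arbitrary units after the authors' lowess normalisation, and fold changes are on the log2(value + 0.1) scale. Of the 76 probes, 63 reached 32 units on at least 3 arrays, and 10 stayed under 32 units on all 12. Each array had between 906 and 1064 of the 3091 probes at 32 units or more. The summed level of 5 heart muscle miRNA (miR-1, miR-133a, miR-208a, miR-208b and miR-499) ranged from 12920 to 14109 units at F91, 31939 to 41509 units at F140, 17423 to 29982 units at P5 and 25833 to 32696 units at P173, so that all later arrays were above the F91 arrays. Of these, miR-208a and miR-208b, which are encoded in myosin genes, averaged at most 16.7 and 61.7 units. The most abundant at F91, miR-133a, averaged 11163.7 units at F91 and 10791.7 units at F140. Over the same ages miR-1 averaged 1285.3 and 16175.0 units, and miR-499 averaged 1030.0 and 8633.7 units. The summed level of 3 fibroblast miRNA (miR-199a, miR-214 and miR-21) ranged from 7460 to 10674 units at F91, 4184 to 6867 units at F140, 2399 to 4123 units at P5 and 969 to 1376 units at P173. Most of it at F91 was miR-214, which averaged 7475.0 units at F91 and 1987.7 units at F140. The others went the other way between these ages. There miR-199a averaged 1206.3 units at F91 and 2530.0 units at F140, and miR-21 averaged 126.3 units at F91 and 899.7 units at F140. That of 3 red cell miRNA (miR-451, miR-144 and miR-486) ranged from 769 to 2123 units at F91, 3721 to 4577 units at F140, 3065 to 5132 units at P5 and 4818 to 6850 units at P173. The endothelial miR-126 ranged from 923 to 4211 units at F91, 6044 to 8703 units at F140, 2197 to 4476 units at P5 and 3535 to 3963 units at P173. The part of these shifts in the results below was not tested.

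In the plot of the brightest probe of each name, miR-1246, miR-1973, miR-4448 and miR-4532 had their highest mean at P5, and miR-1260, miR-7641 and miR-7977 at P173.

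**Figure D1:**
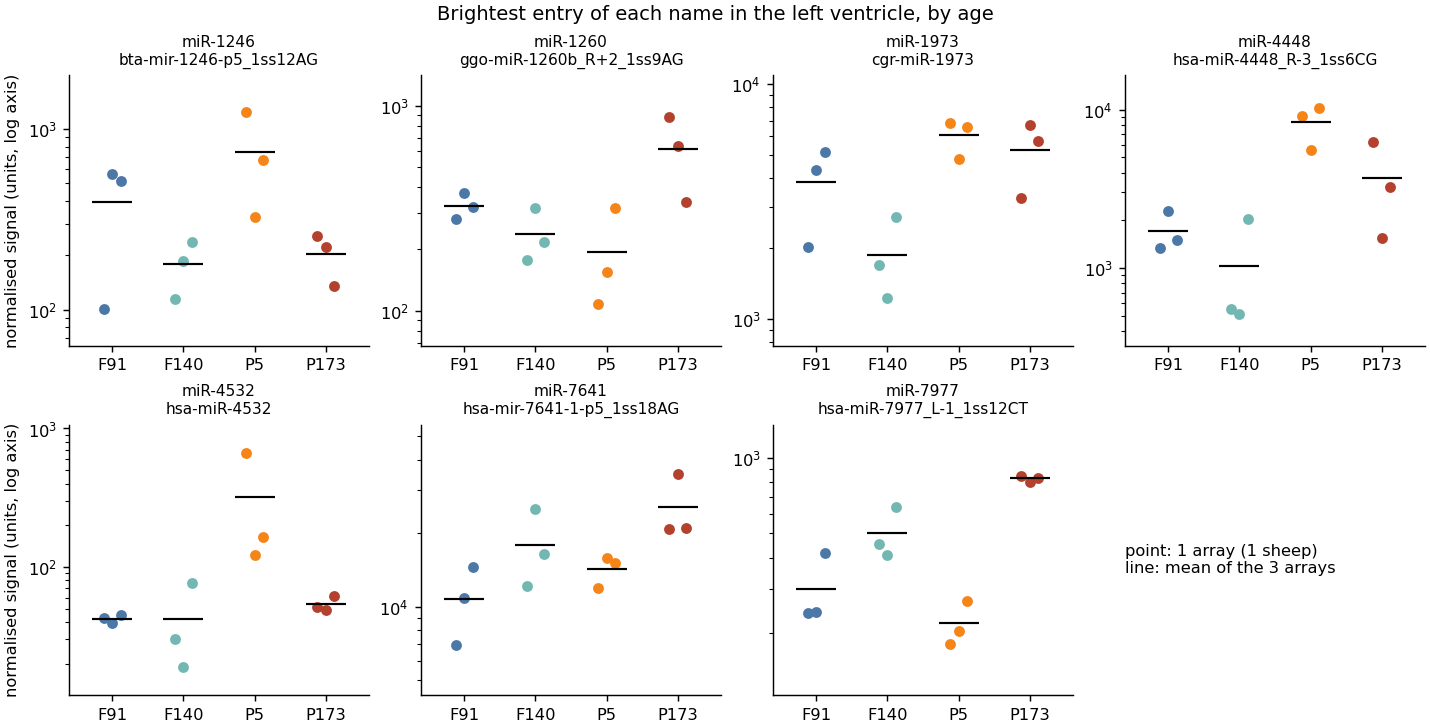
Normalised signal in units (log axis) of the brightest probe of each name on the 12 arrays, with ages in order from F91 to P173 (points are arrays of single sheep and lines are means of 3 arrays). The 3 P5 arrays of the miR-4448 probe lie between 5540 and 10261 units, above all F140 arrays, and the 3 P173 arrays of the miR-7977 probe lie between 801 and 848 units, above all other arrays.

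The 11 miR-7641 probes that span this stretch of 5S rRNA were higher at P173 than at F91, by 1.27 to 3.63 on the log2 scale (median 2.14), and none of the other 9 probes of the name differed by the test. The probe hsa-mir-7641-1-p3_1ss18AG had 16316, 28712 and 17783 units at P173, against 4549, 5125 and 3288 units at F91. At F140 it had 12434, 21149 and 11655 units, and at P5 6942, 11949 and 10221 units. Each P173 and each F140 array was thus above each F91 array, and the P5 arrays lay between those of F91 and P173. The log2 change was 2.26 ± 0.32 (SE, n = 3 each, limma adjusted p = 0.00051) for P173 against F91 and 1.77 ± 0.32 (limma adjusted p = 0.0083) for F140 against F91.

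The change was largest at hsa-mir-7641-1-p3_1ss16AT, whose target carries a mismatch to 5S rRNA 1 base short of its 3′ end. Its levels were 3955, 8516 and 4548 units at P173, against 905, 449 and 197 units at F91 (log2 change 3.63 ± 0.67 SE, n = 3 each, limma adjusted p = 0.0036). The smallest change among the 11 was that of the brightest probe, hsa-mir-7641-1-p5_1ss18AG, with 20916, 34907 and 21041 units at P173, against 6953, 10864 and 14585 units at F91 (log2 change 1.27 ± 0.34 SE, n = 3 each, limma adjusted p = 0.035). That call was lost under 14 of 28 alternatives, among them leaving out any P5 or P173 array, F91 replicate 1 or F91 replicate 2, whereas 8 of the 11 were lost under 1 alternative only, the fit of the 2 ages alone with replicates paired. Under that fit 0% of all 3091 probes passed. Since the stretch was drawn from the probes that passed, their lying on it is no separate result. The P173 and F91 arrays did not overlap at any of the 11 probes. Among all 76 members, 22 had P173 arrays all above the F91 arrays and 0 all below, where 9.67% and 8.77% of all 3091 probes had these orders.

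The 9 probes outside this set lie on the same RNA. Of these, 6 are upstream, between bases 35 and 64, and 3 end at bases 82 to 86 within the stretch. The canonical hsa-miR-7641 had 4172, 6916 and 2647 units at P173, against 1076, 3310 and 5751 units at F91, and these arrays overlapped (log2 change 0.63 ± 0.51 SE, n = 3 each, limma adjusted p = 0.58). The probe hsa-miR-7641_R+6_1ss1TC, which covers the same site to base 63, had 4499, 7066 and 3042 units at P173, against 10384, 4749 and 8481 units at F91 (log2 change -0.70 ± 0.45 SE, n = 3 each, limma adjusted p = 0.46). Over the 9 probes the changes ran from -0.95 to 0.63. Their median G and C content was 57.1%, against 47.1% for the 11. The slope of signal on that content, in log2 units per 10 percentage points, was -0.17, 0.17 and 0.55 at F91. At P173 it was 0.04, 0.27 and 0.01. With this trend taken out 11 of 76 members passed for P173 against F91, all higher, where 6.86% of all probes passed.

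Probes that begin at bases 63 to 65 but end at different bases had different levels with age. The probe hsa-mir-7641-1-p3_2ss6TC26AG, over bases 64 to 91, had 10047, 14986 and 10799 units at P173, against 3219, 3394 and 1737 units at F91, with no overlap. The probe hsa-mir-7641-1-p3_1ss7TC, over bases 63 to 86, had 220, 282 and 226 units at P173, against 65, 294 and 735 units at F91, within whose range the P173 arrays lay. At P5 the probe ending at base 86 had 1163, 450 and 1009 units, so that its P173 arrays were all below its P5 arrays.

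Beside the miR-7641 probes, the 12 5S controls gave no call. Added to the same fit, they had limma adjusted p of 0.31 to 0.98 for P173 against F91, and none of the 12 had an unadjusted p under 0.05 in any of the 4 comparisons. The control bta-5S-b5, over bases 81 to 102, had 13732, 25962 and 14534 units at P173, against 9692, 21105 and 23343 units at F91. The control bta-5S-b4, over bases 61 to 82, had 54, 65 and 71 units at P173, against 32, 401 and 989 units at F91 (log2 change -1.89 ± 1.16 SE, n = 3 each, limma adjusted p = 0.44). The F91 arrays of the controls spread widely, with replicate 3 the highest in 11 of 12 and replicate 1 the lowest in 11 of 12.

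**Figure D2:**
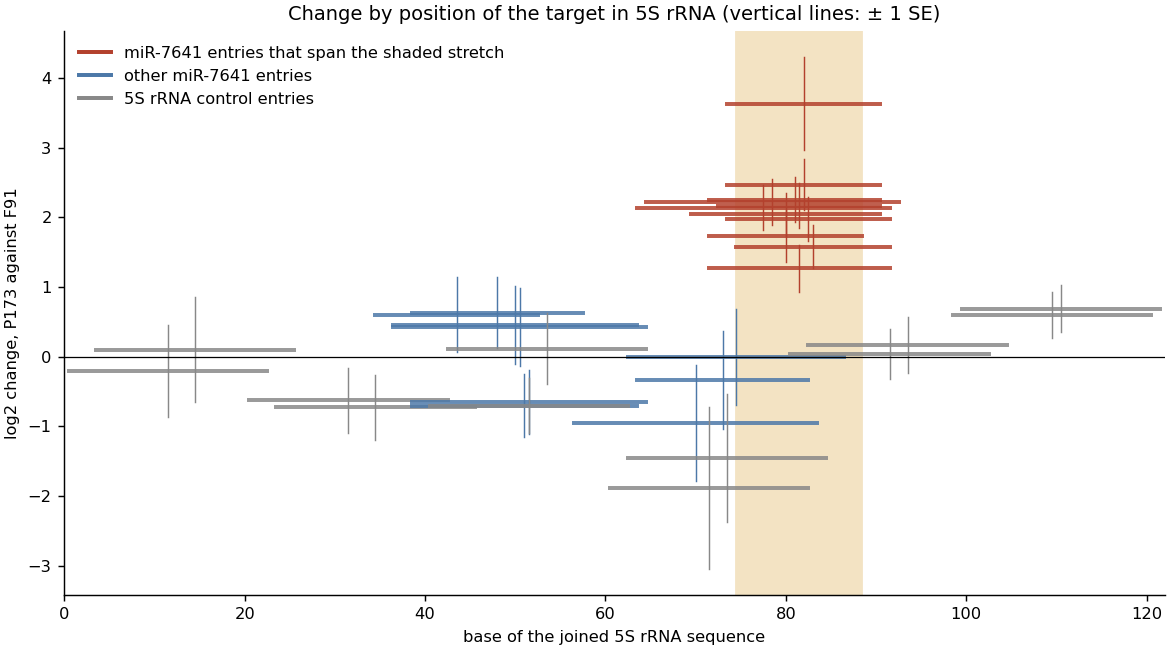
Log2 change of P173 against F91 (limma, n = 3 arrays each) of 20 miR-7641 probes and 12 5S rRNA control probes, drawn as bars over the bases of 5S rRNA that each target covers, with vertical lines of ± 1 SE and the stretch from base 75 to base 88 shaded. The 11 probes across the whole stretch lie between 1.27 and 3.63, and the other probes lie below 1.

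Because a probe and a control on 1 array share that array's scaling, their log2 ratio was also formed within each array. The ratio of hsa-mir-7641-1-p3_1ss18AG to bta-5S-b5 was 0.25, 0.15 and 0.29 at P173, against -1.09, -2.04 and -2.83 at F91. At F140 it was 0.25, 0.14 and -0.33, and at P5 -1.23, -0.44 and -0.62. The P173 and F91 ratios did not overlap, and the difference of their means was 2.22. Over bta-5S-b6, the same difference was 1.66 and over bta-5S-b3 2.96. The ratio of hsa-miR-7641 to the same controls differed by 0.59, 0.04 and 1.34, with overlap of the arrays over bta-5S-b5 and bta-5S-b6. Such a ratio shows unequal change in signal between 2 probes on the same RNA and does not show which of them was constant. It differed between overlapping targets too. For hsa-miR-7641 over bta-5S-b3 it was -0.83, -0.85 and -1.15 at P173, against -3.26, -1.64 and -1.94 at F91, without overlap. The part of probe length, mismatches and G and C content in these ratios was not tested.

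**Figure D3:**
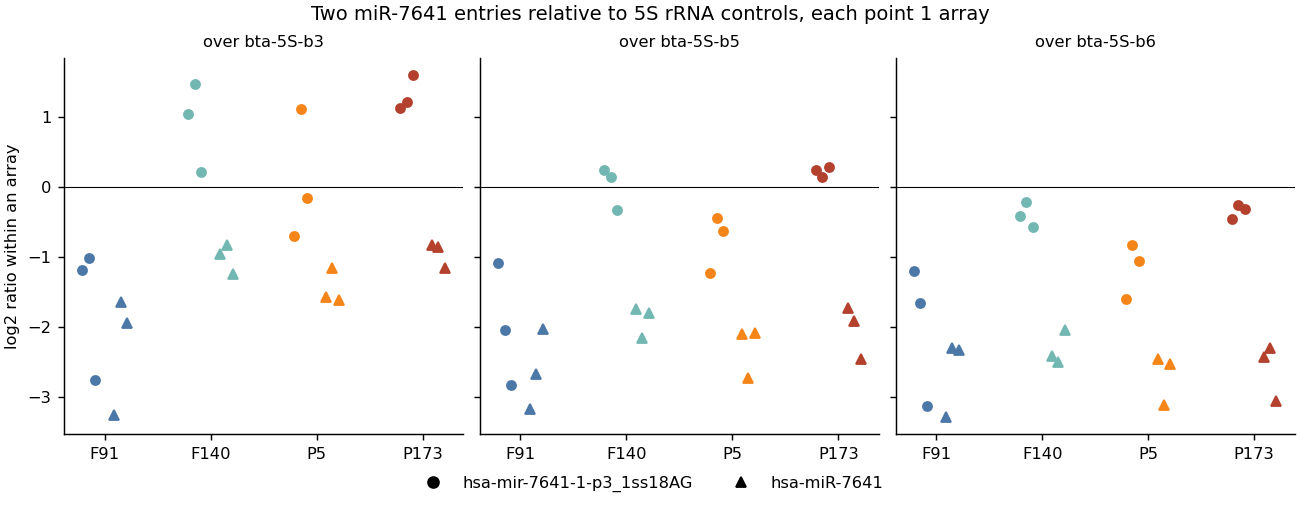
Log2 ratio within an array of hsa-mir-7641-1-p3_1ss18AG (circles) and hsa-miR-7641 (triangles) to 3 5S rRNA controls, 1 point per array, with ages in order from F91 to P173. The circles over bta-5S-b5 lie between 0.15 and 0.29 at P173 and between -2.83 and -1.09 at F91.

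Likeness over the 12 arrays was uneven along the RNA. Among the 11 probes over the stretch, which were grouped because they rose together, Pearson's r of the log2 values had a median of 0.93 over 55 pairs (0.641 to 0.998). Among the 6 upstream probes the median r was 0.164 over 15 pairs (0.048 to 0.998), and between the 11 and the 6 it was 0.174. With the b5 controls, which overlap the end of the stretch, the 11 probes had a median r of 0.169, and with the b6 controls 0.465. The 6 upstream probes had a median r of 0.661 with the b3 controls, which overlap them, and of 0.75 with the b5 controls, which do not. All points come from the same 12 arrays, and overlapping targets share sequence, so these values are descriptive.

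From F91 onward the count of members past the test, at an adjusted p of at most 0.05 over all 3091 probes, was 8 of 76 for F140 against F91, where 5.53% of all probes passed in either direction, 3.85% higher and 1.68% lower. All 8 were miR-7641 probes over the stretch, and all were higher at F140. These probes overlap on 1 site, so they are closer to 1 measurement than to 8. Counted as 1 probe per name and hairpin arm, 0 of 13 passed. The arrays did not overlap at 10 members, all higher at F140, where 11.4% of all probes were so placed higher and 7.15% lower. With the replicate number as a block over all 12 arrays the count of calls was 10, where 5.69% of all probes passed. With only these 2 ages in the fit the count was 0, also with replicates paired. In these fits 0.291% and 0% of all probes passed. With pairing and the trend with G and C content taken out together the count was 9, where 3.01% of all probes passed. For P173 against F91 the count was 12 of 76, all higher, where 6.76% of all probes passed, 3.24% higher and 3.53% lower. They were the 11 miR-7641 probes, which overlap on the same site, and 1 miR-7977 probe. Counted as 1 probe per name and hairpin arm, 3 of 13 passed. With the 2 ages alone and replicates paired the count was 0 of 76, with 17 at an unadjusted p under 0.05. In that fit 0% of all 3091 probes passed, so the count does not set the members apart. Over the 4 ages, the limma F-test passed 22 of 76, where 8.70% of all probes passed. Without P5 replicate 1 the F-test passed 14, where 6.28% of all probes passed. The one-way analysis of variance named in the study's methods, run here on the lowess values, passed 8, where 5.86% of all probes passed. Those were 7 miR-7641 probes and 1 miR-7977 probe. With its own processing the study listed entries of miR-1246, miR-1260, miR-1973 and miR-4448 as differentially expressed as well.

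**Figure D4:**
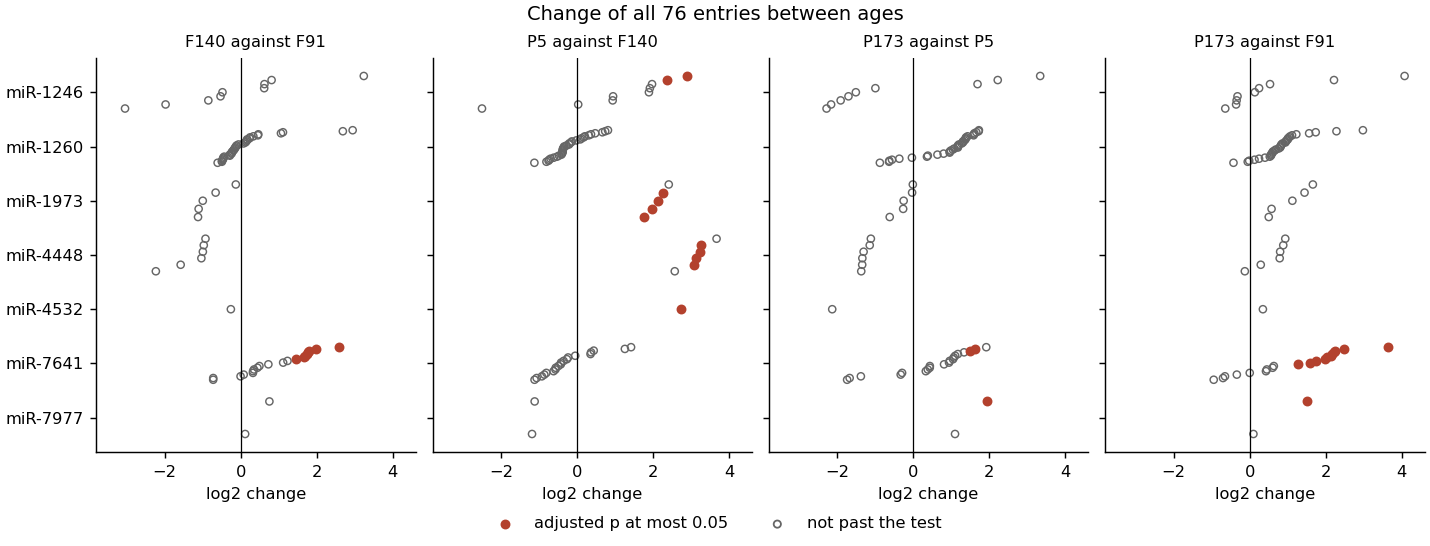
Log2 change (limma, n = 3 arrays per age) of the 76 probes in 4 comparisons of ages, 1 point per probe, grouped by name, with filled points past an adjusted p of 0.05. Calls are of miR-7641 for F140 against F91, of miR-1246, miR-1973, miR-4448 and miR-4532 for P5 against F140, and of miR-7641 and miR-7977 for P173 against P5 and P173 against F91.

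Around birth a different set was higher. For P5 against F140, 11 of 76 members passed, all higher at P5, where 1.81% of all probes passed in either direction, 0.841% higher and 0.971% lower. They were 4 miR-4448, 4 miR-1973, 2 miR-1246 probes and miR-4532. The P5 arrays were all above the F140 arrays at 15 members and all below at 8, where 9.16% and 11.9% of all probes had these orders. The calls moved when single arrays were left out, and calls over all probes fell as well. The count was 0 of 76 without F140 replicate 1, F140 replicate 2, P5 replicate 1 or P5 replicate 3 (16 to 22 at an unadjusted p under 0.05). In these fits 0.259%, 0.485%, 0.259% and 0.129% of all 3091 probes passed. The count was between 4 and 6 without F91 replicate 2, P5 replicate 2, P173 replicate 2 or P173 replicate 3. There 0.776% to 1.36% of all probes passed. Each of the 11 kept its direction under all 28 alternatives. Several of these, such as 2 ages alone or leaving out an F91 or P173 array, cannot alter the fitted change. Kept direction there is no separate result.

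Among the miR-4448 probes, hsa-miR-4448_R-3_1ss6CG had 9113, 5540 and 10261 units at P5, against 548, 516 and 2024 units at F140 (log2 change 3.27 ± 0.55 SE, n = 3 each, limma adjusted p = 0.010). At F91 it had 1330, 2279 and 1497 units, and at P173 6274, 1548 and 3261 units. Every P5 array was above every F140 array, and F140 replicate 3 stood above the other F140 arrays. The variant hsa-miR-4448_1ss6CA had 963, 722 and 1890 units at P5, against 67, 76 and 381 units at F140 (log2 change 3.13 ± 0.66 SE, n = 3 each, limma adjusted p = 0.030). Both probes with the third base at position 6 stayed dim, at 46 units or less on every array. The 4 bright miR-4448 probes went together over the arrays, with r between 0.957 and 0.998, and their targets differ by at most 3 bases in length.

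The miR-1973 probes had their highest means after birth. None passed for P173 against F91 (limma adjusted p from 0.087 to 0.58), and P5 against F91 was not tested. The probe hsa-miR-1973 had 2835, 1912 and 3622 units at P5, against 307, 510 and 1133 units at F140, without overlap (log2 change 2.26 ± 0.44 SE, n = 3 each, limma adjusted p = 0.020). At P173 it had 1811, 3577 and 2816 units, a range like that at P5 (log2 change -0.04 ± 0.44 SE for P173 against P5, limma adjusted p = 0.99). At F91 it had 931, 1451 and 1312 units. The brightest probe of the name, cgr-miR-1973, had 6814, 4794 and 6595 units at P5, against 1689, 1227 and 2711 units at F140 (log2 change 1.75 ± 0.40 SE, n = 3 each, limma adjusted p = 0.041). At F91 this probe had 2027, 4311 and 5119 units, and these arrays overlapped those of P5 and of P173. The probe hsa-mir-1973-p5 had 6114, 4380 and 6162 units at P5, against 966, 1142 and 2511 units at F140 (log2 change 1.97 ± 0.42 SE, n = 3 each, limma adjusted p = 0.032). The probe hsa-mir-1973-p3_1ss2CT had 1379, 1012 and 1852 units at P5, against 200, 216 and 732 units at F140 (limma adjusted p = 0.035). All 5 miR-1973 probes had P5 arrays above their F140 arrays, and r between them was at least 0.824.

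Signal of miR-1246 came from the 3 probes over the shared 16 bases, which averaged above 100 units over the 12 arrays. The other 6 probes, over A- and U-rich bases upstream, averaged less, and bta-mir-1246-p3 did not pass 10 units on any array. The probe bta-mir-1246-p5_1ss9AG had 648, 130 and 360 units at P5, against 36, 36 and 56 units at F140 (log2 change 2.90 ± 0.62 SE, n = 3 each, limma adjusted p = 0.032). At F91 it had 27, 88 and 83 units, and at P173 93, 40 and 70 units. P5 replicate 1 was the highest of all 12 arrays, and all P5 arrays were above all others. The brightest probe, bta-mir-1246-p5_1ss12AG, had 1238, 325 and 672 units at P5, against 114, 186 and 237 units at F140, and did not pass (log2 change 1.92 ± 0.63 SE, limma adjusted p = 0.17). Of the 6 dim probes, 4 were under 32 units on all 12 arrays, so their fitted changes, from -3.04 to 4.07 over the 4 comparisons, are between values near 0. For P173 against P5 bta-mir-1246-p5_1ss9AG had the lowest fitted change of the bright members (log2 change -2.29), which did not pass.

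The single probe hsa-miR-4532 had 667, 121 and 164 units at P5, against 30, 19 and 77 units at F140 (log2 change 2.74 ± 0.63 SE, n = 3 each, limma adjusted p = 0.043). At F91 it had 43, 39 and 45 units, and at P173 51, 49 and 62 units. All P5 arrays were above all other arrays, and P5 replicate 1 stood above the other P5 arrays. This call passed under 11 of the 28 alternatives, over which the log2 change ran from 1.13 to 3.30 and the adjusted p from 0.025 to 0.64. The change was lowest, at 1.13, and did not pass with the trend with G and C content taken out. Without P5 replicate 1 it was 1.99, and without F140 replicate 3 it was 3.30. The slope of signal on that content, in log2 units per 10 percentage points, was 0.05, -0.08 and 0.14 at P5, against -0.47, -0.33 and -0.17 at F140. With this trend taken out 12 of 76 members passed for P5 against F140, 10 higher and 2 lower. In that fit 1.97% of all 3091 probes passed, 28 probes higher and 33 lower. The 2 lower were cgr-miR-1260_L-1_1ss7CT (log2 change -1.67) and hsa-miR-7977_L-1_1ss12CT (-1.52).

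Between P5 and P173 the tRNA-like miR-7977 was higher at the later age. The probe hsa-miR-7977_L-1_1ss12CT had 848, 801 and 835 units at P173, against 182, 205 and 270 units at P5 (log2 change 1.94 ± 0.32 SE, n = 3 each, limma adjusted p = 0.0093), and 241, 244 and 419 units at F91 (log2 change of P173 against F91 1.51 ± 0.32 SE, limma adjusted p = 0.0087). At F140 it had 453, 412 and 635 units. The P173 arrays were above all others, and all F140 arrays were above all P5 arrays. Without P5 replicate 1 or P5 replicate 2 the call against P5 was lost. The second probe, hsa-miR-7977_1ss6AT, had 52, 65 and 75 units at P173, against 20, 34 and 38 units at P5, and did not pass (limma adjusted p = 0.38).

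In all, 3 of 76 members passed for P173 against P5, all higher at P173, where 1.59% of all probes passed in either direction, 0.906% higher and 0.679% lower. Besides miR-7977 these were 2 miR-7641 probes over the stretch. The probe hsa-mir-7641-1-p3 had 6683, 12810 and 6603 units at P173, against 1796, 3741 and 2870 units at P5 (log2 change 1.62 ± 0.37 SE, n = 3 each, limma adjusted p = 0.045). The probe hsa-mir-7641-1-p5_2ss25AG28TA had 10822, 18277 and 11640 units at P173, against 3997, 6170 and 4288 units at P5 (log2 change 1.48 ± 0.33 SE, limma adjusted p = 0.039). Neither overlapped. The count was 0 of 76 without P5 replicate 1 (30 at an unadjusted p under 0.05) or P5 replicate 2 (41), and 1 without F91 replicate 2, F140 replicate 1, P5 replicate 3, P173 replicate 1 or P173 replicate 2. It was 5 without P173 replicate 3 and 13 without F91 replicate 1. In these fits the share of all 3091 probes that passed ran from 0.388% to 2.46%. That share was 0.421% without P5 replicate 1 and 0.388% without P5 replicate 2.

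None of the 33 miR-1260 probes passed in the fit of all 3091 probes on 12 arrays, with adjusted p from 0.075 upward for P173 against P5 in limma, where 22 had an unadjusted p under 0.05 and were higher. The one-way analysis of variance, run here on the lowess values, passed 0 of 33 over the 4 ages. The study itself, with its own processing, listed miR-1260 and miR-1260b among its differentially expressed miRNA. Why the results differ was not tested. Other settings did call some. For P173 against P5, 4 were higher with dim probes filtered out, 7 without F91 replicate 1 and 3 without P173 replicate 3. In these fits 6.15% of the 1122 probes kept, 2.43% and 2.46% of all 3091 probes passed. For P173 against F91, 1 was higher without F91 replicate 1 and 1 without F91 replicate 2, and for F140 against F91 1 was higher without F91 replicate 1. There 9.06%, 5.37% and 9.84% of all probes passed, in this order. For P5 against F140, 1 was lower with the trend with G and C content taken out, where 1.97% of all probes passed. The P173 arrays were above the P5 arrays at 25 of 33 probes, where 7.57% of all 3091 probes had this order. Over all 76 members 38 had all P173 arrays above the P5 arrays and 8 had them below, an order found at 9.96% of all probes. The probe cgr-mir-1260-p5 had 681, 617 and 344 units at P173, against 144, 116 and 240 units at P5 (log2 change 1.72 ± 0.43 SE, n = 3 each, limma adjusted p = 0.075). At F91 it had 147, 393 and 275 units, and at F140 303, 331 and 214 units. The brightest probe, ggo-miR-1260b_R+2_1ss9AG, had 878, 633 and 339 units at P173, against 108, 155 and 317 units at P5, and P173 replicate 3 and P5 replicate 3 nearly met (limma adjusted p = 0.083). The bovine sequence bta-miR-1260b had 153, 148 and 83 units at P173, against 40, 49 and 79 units at P5 (limma adjusted p = 0.31). The median log2 change over the 33 probes was 1.17, and over all 3091 probes it was -0.16. Since these probes differ by a few bases, with a median r of 0.901 among the 17 brightest, they are closer to 1 measurement than to 33.

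No member was lower at the later age by the test in any of the 4 comparisons, in limma over all 12 arrays. At an unadjusted p under 0.05, 3 were lower at F140 than at F91, 7 at P5 than at F140, 9 at P173 than at P5 and 0 at P173 than at F91. The one-way analysis of variance has no direction. Other processing gave between 1 and 4 lower calls. For P5 against F140 there was 1 with dim probes filtered out, with the trend with target length taken out, without F91 replicate 1 or without F91 replicate 3, and there were 2 from scanner signals or with the trend with G and C content taken out. Over all probes the lower calls in these fits were 52 of 1122, then 28, 77, 53, 91 and 33 of 3091, in this order. For P173 against P5 there were 2 without F91 replicate 1, and 4 with 2 ages alone, replicates paired and the G and C trend taken out. Over all 3091 probes 30 and 23 were lower in these fits. For F140 against F91 there were 2 without F91 replicate 1 and 1 without F140 replicate 3, and for P173 against F91 there was 1 without F91 replicate 1. There 97, 22 and 131 of all 3091 probes were lower, in this order.

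Outside the 76 probes, patterns most like each name's brightest probe, by Pearson's r of log2 values over the 12 arrays, were sought among 354 probes of other names. These were the probes that averaged at least 100 units, reduced to 1 for each base name and hairpin arm, so that a closer variant of another name may have been passed over. For the miR-1246 probe they were mmu-miR-466f-3p (r = 0.934) and 2 probes of mir-1187 (r = 0.931 and 0.926), whose targets are mostly repeats of C and A. For the miR-1973 probe they were 3 predicted candidates without a miRNA name, led by PC-3p-147515_18 (r = 0.969). For the miR-4448 probe they were bta-mir-2487-p5_1ss16CT (r = 0.918), PC-5p-157221_17 (r = 0.885) and bta-miR-1835_L-6R+1_1ss8TC (r = 0.835). The last of these also led for miR-4532 (r = 0.803), followed by PC-5p-157221_17 (r = 0.741) and a variant of miR-2137 (r = 0.74). For the miR-1260 probe they were PC-3p-5376_912 (r = 0.783) and 2 probes of miR-5100 (r = 0.771 and 0.737). For the brightest miR-7641 probe they were variants of miR-29d-3p (r = 0.843) and miR-29a-3p (r = 0.795), with PC-3p-14545_280 between them (r = 0.807). For the miR-7977 probe they were oar-miR-150, a miRNA of lymphocytes (r = 0.897), and 2 probes of miR-5100 (r = 0.888 and 0.832). Among the white cell markers only miR-150 was higher at P173, with an average of 291.3 units against 79.3 units at P5, while miR-142 averaged 12.3 units against 15.3 units and miR-223 9.3 units against 13.3 units. The part of such cells in the miR-7977 values was not tested.

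Further entries held to share sequence with other RNA were counted from a list of 35 names, of which 16 were on the array with 120 probes. Their overlap is general knowledge and was not aligned here. Of these 120, 19 passed the F-test, where 8.70% of all 3091 probes passed, and they belonged to miR-2478, miR-1285, miR-4454, miR-5100, miR-6240 and miR-1386. For F140 against F91, 4 were higher and 0 lower by the limma test, where 5.53% of all probes passed. For P5 against F140, 1 was higher and 3 were lower, where 1.81% passed, while the median log2 change over the 120 probes was 0.87 and over all probes 0. For P173 against P5, 11 were higher and 0 lower, where 1.59% passed, and for P173 against F91 14 were higher and 0 lower, where 6.76% passed. The probe mmu-miR-5100_L+2R+1_1ss22CT averaged 475.3 units at P173, against 94.7 units at P5 (log2 change 2.26 ± 0.38 SE, n = 3 each, limma adjusted p = 0.0093). The probe bta-miR-2478 averaged 874.0 units at P173, against 320.3 units at P5 (log2 change 1.45 ± 0.28 SE, n = 3 each, limma adjusted p = 0.017), and 823.3 units at F140 (log2 change of P5 against F140 -1.38 ± 0.28 SE, limma adjusted p = 0.026). The probe hsa-miR-4454 averaged 828.7 units at P173, against 169.0 units at F91 (log2 change 2.26 ± 0.37 SE, n = 3 each, limma adjusted p = 0.0014).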

How the data were processed

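Single-dye (Cy3) custom miRNA arrays of 12 left ventricles were analysed. The authors deposited a table of lowess-normalised whole-number signals, used here as a score in arbitrary units, a series matrix of linear intensity values, and scanner intensity per spot. The study's methods name background correction, log2 transformation and normalisation in a commercial package; which step made each file is not given in the sources used here. Member probes have 3 spots each, and the highest member spot (43663) was below the brightest spots of its array. Depth does not apply to arrays, and 3 arrays per age limit the precision.

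Values were tested as log2(value + 0.1) with limma 3.58.1 (R 4.3.3): lmFit over 12 arrays and 3091 probes without controls, eBayes with a variance trend, and Benjamini-Hochberg adjustment over all 3091. The fit was tested on simulated data. Comparisons of 4 pairs of ages and an F-test were made. Alternatives were pseudocounts of 1 and 16, a filter and a floor at 32 units, the series matrix, scanner intensity with normexp (offset 50) and quantile normalisation, quantile normalisation of the table, no variance trend, 2 ages alone, the replicate number as a block, trends with G and C content or target length taken out, each array left out, and the one-way analysis of variance of the study's methods. The last 2 alternatives tried (the 5S controls in the fit; 2 ages alone with block and G and C trend) were chosen after seeing the data.

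The members and lists were chosen with earlier results of these data known. Named probes were 1 probe per name and hairpin arm (exact ovine, then bovine, then other exact matches, then variants, ties by mean level), the brightest of each name, and the largest rise and fall in each comparison among members averaging at least 100 units at the brighter age. Other probes named, mainly of miR-7641 and miR-4448 and the 5S controls, were chosen after their values were seen. Same-numbered F91 and F140 arrays deviated together (correlations 0.211, 0.141 and 0.282 over all probes), a hint from the data, and no other pair of ages did so in all 3. Correlations use log2 values over 12 arrays. The joined 5S rRNA sequence is not reported here.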

Additional observations from a re-analysis of the deposited data

Results flagged for a closer look

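The 5S rRNA control probes lie outside the study's miRNA measurement and carried strong signal: 11 of 12 had a median scanner signal above every empty spot on all 12 arrays. No group held more than 3 arrays, so single arrays were not tested for standing apart.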

How the results depend on the processing

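Each member called kept its direction under all 28 alternatives of its comparison, on the log2 scale from 0.98 to 4.17, but counts moved. Several alternatives alter only the error or the adjustment, not the fitted change, so direction could not turn there. These are the filter on dim probes, no variance trend, 2 ages alone, the replicate block, the 5S controls and leaving out an array of another age. The members called had also passed on these same arrays. For F140 against F91 the 8 calls became 0 without the variance trend (10 at an unadjusted p under 0.05), with 2 ages alone (11) and with 2 ages alone and the replicate block (14), and 6 to 11 when an array was left out. For P5 against F140 the 11 became 0 with a floor of 32 units (20), without the trend (20), with 2 ages alone (23) and with these and the replicate block (20), 3 with the G and C trend also taken out, and 0 to 14 when an array was left out. For P173 against P5 the 3 became 9 with the filter on dim probes, 1 with the floor, 6 from scanner signals, 0 without the trend (36), 7 with the replicate block, 0 with 2 ages alone and the block (44), 1 with the G and C trend taken out, 6 with that and the replicate block, 8 (4 higher and 4 lower) with 2 ages alone, block and G and C trend, and 0 to 13 when an array was left out. For P173 against F91 the 12 became 0 with 2 ages alone and the replicate block, 8 without the trend or with 2 ages alone, and 10 to 13 when an array was left out. The F-test count of 22 became 8 with the floor, 0 without the trend, 8 by the methods' one-way test, and 14 to 31 when an array was left out. The share of all probes that passed moved as well. With 2 ages alone and the replicate block it was 0% in all 4 comparisons. Without the variance trend it was 1.2%, 0.194%, 0.291% and 4.11% in these 4 comparisons, and 3.33% for the F-test. With the floor it was 1.59% for P5 against F140. The filter on dim probes left 63 members and 1122 probes, of which 6.15% passed for P173 against P5. In that comparison 1.84% of all probes passed from scanner signals, 1.78% with the replicate block and 1.29% with the G and C trend taken out. With that trend and the block 1.59% passed, and with 2 ages alone as well 1.62%. Causes were not tested. Counted as 1 probe per name and hairpin arm, 0, 5, 2 and 3 of 13 passed in the 4 comparisons in this order. Signals under 32 units limit the dim miR-1246 and miR-1260 probes.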
